A study of Mus musculus with 2 samples.

Results

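The mitochondrial carrier family SLC25 was taken as every gene of the count table whose symbol begins with Slc25a, which gave 47 of 22556 genes. Levels were those of polyadenylated RNA in 2 replicate libraries of mouse embryonic stem cells (mESCs) of the iXist-ChrX-Dom line without induction of Xist. This line is a single clone (B2) of Mus musculus domesticus (129S) by castaneus (Cast) origin, in which a doxycycline-responsive TetOn promoter stands in place of the endogenous Xist promoter on the domesticus X chromosome. The cells were grown in serum with LIF, cleared of feeder cells by pre-plating and left untreated, so both libraries belong to the 0 h group and there is no comparison between treatments. The study used such data to rank genes by initial expression. Here the question was how that expression was spread over the carriers, and how far the replicates and the gene length used for scaling moved it.

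SLC25 proteins sit in the inner mitochondrial membrane, with a few in the outer membrane or in peroxisomes, and exchange nucleotides, phosphate, amino acids, carboxylic acids, cofactors and metal ions between the matrix and the cytosol. They are encoded in the nucleus, those of the inner membrane are inserted mainly through the TIM22 import route, and most share a compact fold built from repeats of paired helices. Some members are expressed in nearly all cells, whereas others are known mainly from liver, brain, testis or muscle.

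Levels are given as transcripts per 1000000 (TPM), on 2 scales. Span TPM divides the counts of a gene by the deposited length, which runs over the whole transcribed span with introns. Exonic TPM divides the same counts by the summed exon length. The study describes its mRNA libraries as nearly free of intronic reads and does not name the length behind its TPM. Under that description the exonic length is closer to the sequence that gave the counts, and the span length divides genes with long introns by more than was sequenced. The share of intronic fragments could not be computed from the counts. Replicate 1 held 23716499 counts and replicate 2 held 20275749. The libraries differed in base composition, with lower values for most GC-rich genes in replicate 2, so members are given in each replicate. The label was checked with markers. All 9 ES cell markers reached 1 span TPM (median 665), and by the test on CPM described further on 8 were lower in replicate 2, as were 45.7% of all genes tested. Pou5f1 (160 and 26.5 TPM in replicates 1 and 2) and Dppa5a (1713 and 230) differed most, and after the trend in GC content the log2 ratios of the 9 markers ran from -2.68 (Dppa5a) and -1.99 (Pou5f1) over -0.01 (Klf2) to 0.53 (Klf4). These levels compare with 1 of 8 fibroblast feeder markers (Thy1, 4.15 and 0.341 TPM, with Lum at 0 counts in both) and 1 of 5 neural precursor markers (Nes, with Sox1 and Olig2 at 0). In such bulk RNA, fewer cells of a type and less RNA per cell cannot be told apart.

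Most of the family was expressed. A mean of at least 1 span TPM was reached by 38 of 47 members, and by 52.7% of all 22556 genes. At least 10 span TPM was reached by 23 members (29.6% of all genes), and at least 100 by 5 members (7.59% of all genes). On the exonic scale 36 members reached 1 TPM (55.3% of genes with an exonic length), 25 reached 10 TPM (34.0%) and 8 reached 100 TPM (10.2%). The median member stood at 9.25 span TPM, against 1.35 over all genes, and at 17.5 exonic TPM against 1.85. The share of all counts that fell on members was 0.537% for replicate 1 and 0.612% for replicate 2. The 95% Wilson intervals, 0.534 to 0.540% and 0.609 to 0.616%, did not overlap. They cover counting error only, and by the test described further on 60.8% of all genes tested differed between these libraries.

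A few carriers held most of this. Slc25a5, Slc25a36, Slc25a3, Slc25a13 and Slc25a4 together made up 78.9% of the member counts in replicate 1 and 81.3% in replicate 2. Slc25a5 alone made up 28.5% and 27.7%. Of the summed exonic TPM of the family, Slc25a5 held 49.4% in replicate 1 and 49.6% in replicate 2. At the other end, Slc25a47 and Slc25a54 had 0 counts in both libraries, as had 21.1% of all genes, and a further 4 members (Slc25a29, Slc25a34, Slc25a41 and Slc25a45) had fewer than 10 counts in total. A count of 0 allows up to 3 counts, which was 0.126 counts per 1000000 (CPM) in replicate 1 and 0.148 CPM in replicate 2 for counting error alone.

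**Figure D1:**
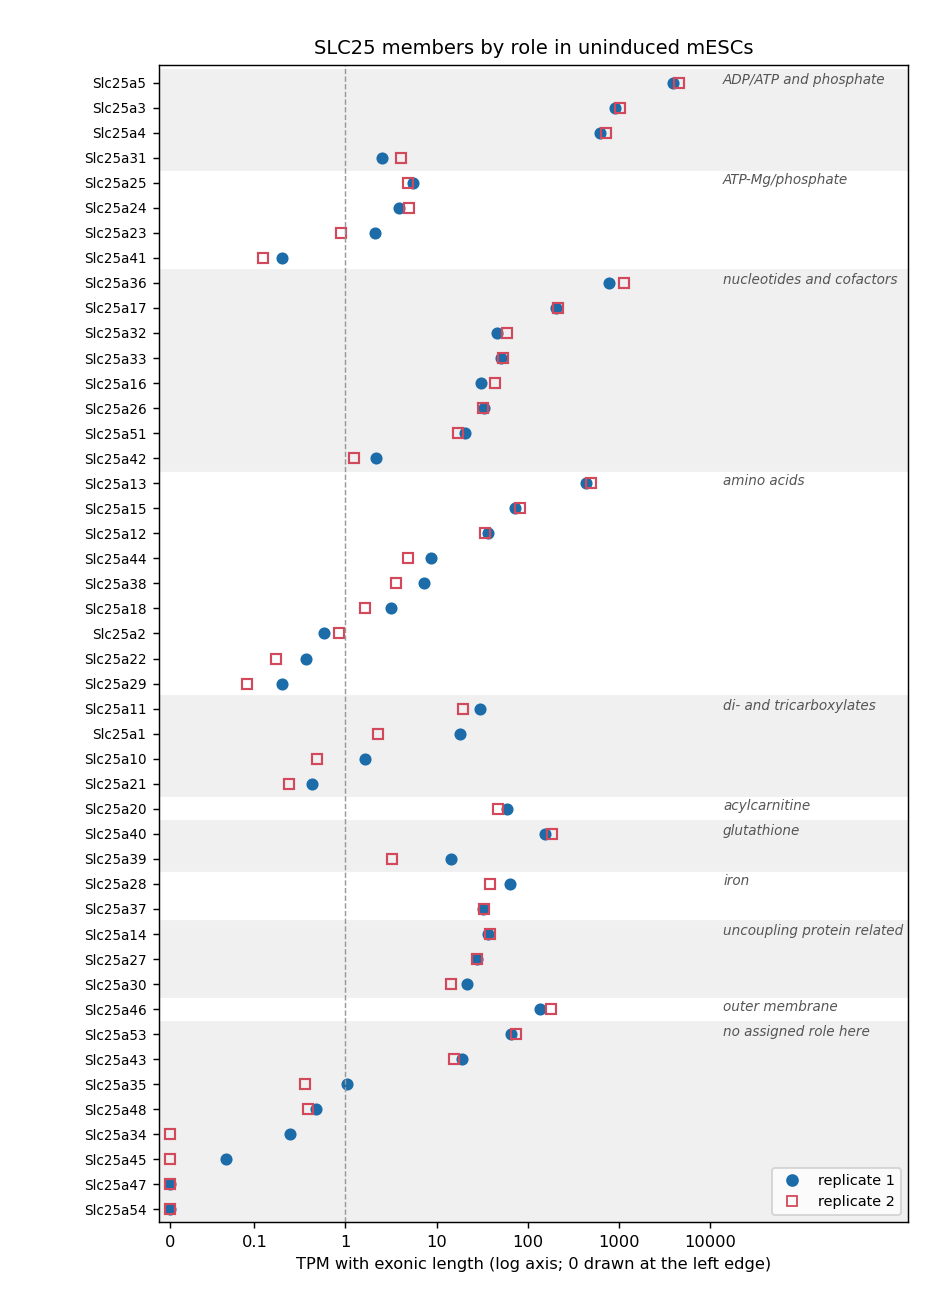
Exonic TPM (log axis) of 46 of the 47 members in replicate 1 (filled circles) and replicate 2 (open squares), grouped by role, with a dashed line at 1 TPM and values of 0 drawn at the left edge. Levels ran from 0 counts (Slc25a47, Slc25a54) to 3901 and 4584 TPM (Slc25a5). Wide gaps between replicates included those at Slc25a1 and Slc25a39, and at Slc25a34, which rests on 5 and 0 counts.

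The carriers for ADP, ATP and phosphate were the most abundant group, with 4 of 4 members above 1 span TPM and a group median of 1595. Slc25a5, an ADP/ATP translocase that hands matrix ATP to the cytosol, stood at 7769 span TPM in replicate 1 and 9638 in replicate 2. It ranked 10 of all 22556 genes by mean span TPM and 7 by exonic TPM. It lies on the X chromosome at 36795651 to 36798806 (mm10, plus strand). Of the 50-base words of its longest transcript, 45.1% recur in pseudogene transcripts such as Gm5560 and Gm5529. How reads from such words were assigned was not examined, so the size and direction of any error in its counts are unknown. Slc25a4, the translocase known from heart and skeletal muscle, stood at 1653 and 2049 span TPM, with no such shared words. Slc25a3, which brings phosphate into the matrix for ATP synthesis, stood at 1225 and 1452 span TPM. Each of these 3 carriers was above the rest of its group and higher in replicate 2 than in replicate 1.

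Slc25a31, the ADP/ATP translocase known from the male germ line, was detected at 40 counts in replicate 1 and 53 in replicate 2, which gave 1.57 and 2.72 span TPM. Among the 3 ADP/ATP carriers, Slc25a5 took 86.2% of the exonic TPM in both replicates. Slc25a4 took 13.7% in both, and Slc25a31 took 0.0552% and 0.0775%. The Slc25a5 level was 1560- and 1113-fold that of Slc25a31 per exonic length, and 4963- and 3539-fold per span length.

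The promoters of these 3 translocases are shown because the genes share a transport activity and differ widely in level. Each window is RefSeq sequence on GRCm38.p6 from 250 bases before to 50 bases after the annotated start, read 5′ to 3′ on the strand of the gene, and capitals mark matches to the motifs described further on.
Slc25a5 promoter, chrX:36795347-36795646 (+ strand): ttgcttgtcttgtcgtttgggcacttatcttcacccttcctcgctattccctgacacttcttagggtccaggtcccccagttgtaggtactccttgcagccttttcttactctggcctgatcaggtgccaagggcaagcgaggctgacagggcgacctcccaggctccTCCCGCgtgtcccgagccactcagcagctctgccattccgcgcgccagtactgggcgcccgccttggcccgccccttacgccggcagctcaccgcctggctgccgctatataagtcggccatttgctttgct
Slc25a4 promoter, chr8:46211013-46211312 (- strand): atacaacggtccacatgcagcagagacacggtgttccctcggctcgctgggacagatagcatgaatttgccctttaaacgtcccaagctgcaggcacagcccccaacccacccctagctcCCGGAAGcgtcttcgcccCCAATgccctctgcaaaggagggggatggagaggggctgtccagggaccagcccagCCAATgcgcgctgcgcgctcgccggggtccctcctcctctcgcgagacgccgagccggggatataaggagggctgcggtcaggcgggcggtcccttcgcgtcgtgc
Slc25a31 promoter, chr3:40708621-40708920 (+ strand): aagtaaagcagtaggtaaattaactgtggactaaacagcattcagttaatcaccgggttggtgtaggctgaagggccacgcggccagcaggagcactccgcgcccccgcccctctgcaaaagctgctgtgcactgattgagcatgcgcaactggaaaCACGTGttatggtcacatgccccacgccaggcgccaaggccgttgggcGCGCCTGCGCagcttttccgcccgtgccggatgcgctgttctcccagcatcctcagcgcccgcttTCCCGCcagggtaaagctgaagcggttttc

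In these windows Slc25a5 held an E2F motif starting 82 bases before the start site. Slc25a4 held an ETS motif 130 bases before it and CCAAT 112 and 56 bases before it. Slc25a31 held an E-box 93 bases and an NRF1 motif 45 bases before the start, and an E2F motif 20 bases after it. None of these matches overlapped another. The CpG observed over expected ratio, which compares the count of CG with that implied by the C and G content, was 0.670 in the Slc25a5 window, 0.775 in the Slc25a4 window and 0.826 in the Slc25a31 window. The carrier with the lowest level thus had the highest ratio of the 3.

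Windows were given for 36 of the 47 members (46 windows, against 32817 for all genes). Motifs were searched on both strands as exact letters. CCAAT, bound by NF-Y, was found in 22 member windows (47.8%, against 37.4% of all windows). The E2F motif TCCCGC was found in 11 (23.9% against 20.0%), the E-box CACGTG in 8 (17.4% against 7.15%) and the ETS motif CCGGAAG in 7 (15.2% against 8.86%). The NRF1 consensus was found in 2 (4.35% against 4.59%), those of Slc25a3 and Slc25a31, and TCAAGGTCA, for estrogen-related receptors, in 0 (0.424% of all windows). Several windows can belong to a single gene, and a match is a description of letters only.

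A CpG ratio of at least 0.6 was found in 22 of the 46 member windows (47.8%, against 35.8% of all windows). Taking the highest window of each gene, it was reached by 19 of 28 members at 1 span TPM or more (67.9%) and by 1 of 8 members below 1 TPM, Slc25a29. Among all genes with a window the same shares were 77.7% of 8942 and 21.6% of 7635. The members below 1 TPM that also lay below 0.6 were Slc25a21, Slc25a22, Slc25a34, Slc25a45, Slc25a47, Slc25a48 and Slc25a54. Slc25a13, the aspartate/glutamate carrier, was among the 9 expressed members below 0.6.

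**Figure D2:**
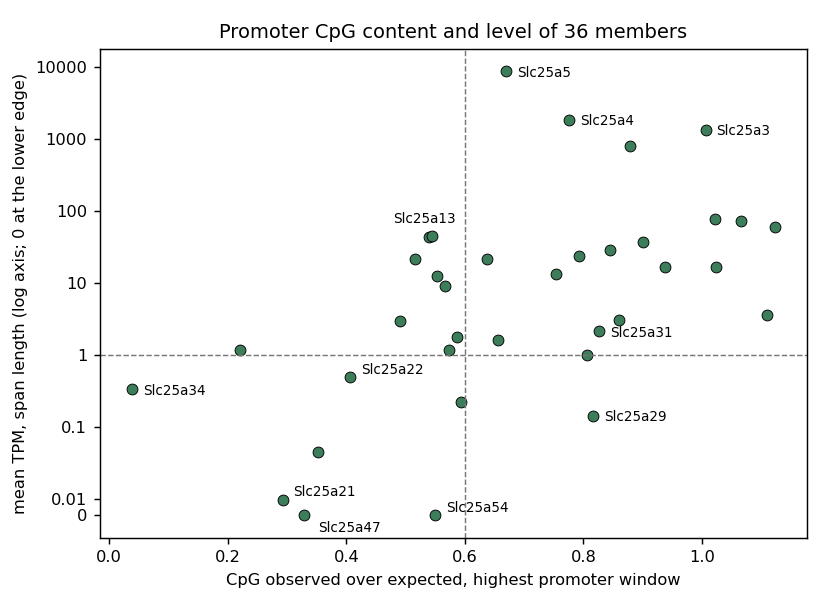
Mean span TPM (log axis, 0 at the lower edge) of the 36 members with a RefSeq promoter window against the highest CpG observed over expected ratio of their windows, with dashed lines at 1 TPM and a ratio of 0.6. Of the 8 members below 1 TPM, only Slc25a29 lies right of the line, against 19 of the 28 members above 1 TPM.

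All 9 carriers of nucleotides and cofactors passed 1 span TPM, with a group median of 23.7. Slc25a36, a pyrimidine nucleotide carrier, led them at 623 span TPM in replicate 1 and 954 in replicate 2, and ranked 189 of all genes. Gm13217, an unprocessed pseudogene, shares words with it, and 11.8% of its 50-base words recur in pseudogenes. Slc25a33, the related pyrimidine nucleotide carrier, stood at 16.0 and 17.8 span TPM. The Slc25a36 level was thus 38.8-fold that of Slc25a33 in replicate 1 and 53.5-fold in replicate 2 per span length, and 15.6- and 21.4-fold per exonic length.

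Slc25a32, which carries folate and FAD, stood at 74.5 and 102 span TPM. Slc25a17, a peroxisomal carrier of coenzyme A, FAD and NAD, stood at 43.3 and 47.6 span TPM and at 207 and 216 exonic TPM. Slc25a16, linked to coenzyme A import into mitochondria, stood at 19.2 and 28.2 span TPM. Slc25a17 was above Slc25a16 in both replicates, by 2.26- and 1.68-fold per span length and by 6.67- and 4.97-fold per exonic length. The other members of the group ranged down to 1.01 mean span TPM for Slc25a42, a coenzyme A carrier, and included the carriers of S-adenosylmethionine (Slc25a26) and NAD (Slc25a51).

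Of the amino acid carriers, 7 of 9 members were above 1 span TPM, with a group median of 3.80. Slc25a13, the aspartate/glutamate carrier of the malate-aspartate shuttle known from liver, stood at 39.5 and 46.8 span TPM but at 440 and 493 exonic TPM. Slc25a12, its counterpart known from brain and muscle, stood at 12.8 and 12.5 span TPM. The Slc25a13 level was 3.10- and 3.74-fold that of Slc25a12 per span length, and 11.9- and 14.4-fold per exonic length. The order was the same on both scales and in both libraries.

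Slc25a15, the ornithine carrier of the urea cycle, stood at 55.5 and 65.8 span TPM. Slc25a2, the related ornithine carrier, had 6 counts in replicate 1 and 7 in replicate 2, or 3.0 and 4.6 span TPM, and 0.583 and 0.846 exonic TPM. The ratio of Slc25a15 to Slc25a2 was 18.5 and 14.3 per span length and 126 and 97.8 per exonic length, and rests on the few Slc25a2 counts. Slc25a18, a glutamate carrier, had 45 and 19 counts. Slc25a22, the other glutamate carrier, had 8 and 3 counts. Its level per span length was 0.442 times that of Slc25a18 in replicate 1 (95% counting interval 0.180 to 0.948) and 0.393 times in replicate 2 (0.0744 to 1.33). The second of these intervals includes equal levels, whereas both intervals per exonic length lay below 1 (0.0479 to 0.252 and 0.0198 to 0.355).

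Carriers of di- and tricarboxylates, which link the citric acid cycle to cytosolic metabolism, held 3 of 4 members above 1 span TPM. Slc25a11, the oxoglutarate/malate carrier, stood at 86.1 span TPM in replicate 1 and 59.9 in replicate 2. Slc25a1, which exports citrate for fatty acid synthesis, stood at 50.4 and 6.76 span TPM. Slc25a10, the dicarboxylate carrier, stood at 1.81 and 0.569 span TPM. All 3 were lower in replicate 2, as were 66.4% of all genes tested at their GC content of 52% or more, and against a trend in GC content Slc25a11 (exact binomial test, adjusted p = 0.90) and Slc25a10 (adjusted p = 0.22) no longer passed. Slc25a21, the oxoadipate carrier, had 9 and 4 counts over a span of 484840 bp, and its mean was 0.00991 span TPM against 0.336 exonic TPM. Slc25a20, the acylcarnitine carrier for fatty acid oxidation, stood at 23.7 and 20.1 span TPM.

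Both glutathione carriers were detected, at levels that depended on the library. Slc25a40 stood at 68.5 span TPM in replicate 1 and 85.9 in replicate 2. Slc25a39 stood at 27.2 and 6.43 span TPM. The Slc25a39 level was 0.396 times that of Slc25a40 in replicate 1 and 0.0749 times in replicate 2 per span length, and 0.0929 and 0.0176 times per exonic length. For Slc25a40, 10.3% of the 50-base words recur in a pseudogene, Gm5066. The mitoferrins import iron for heme and iron-sulfur clusters. Slc25a28 stood at 44.5 and 28.9 span TPM and Slc25a37 at 15.7 and 17.2. Slc25a28 was above Slc25a37 by 2.84- and 1.69-fold per span length and by 1.98- and 1.17-fold per exonic length, whereas the counts themselves were higher for Slc25a37 (1006 and 838 against 731 and 362).

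The ATP-Mg/phosphate carriers were low, with 3 of 4 members above a mean of 1 span TPM and no mean above 3.04. Slc25a24 stood at 1.50 and 2.03 span TPM and Slc25a25 at 3.15 and 2.92. Their ratio was 0.477 and 0.697 per span length and 0.701 and 1.02 per exonic length, so their order was not the same in both replicates on the exonic scale. Slc25a23 stood at 2.25 and 0.986 span TPM. Slc25a41 had 2 counts and 1 count, and lies 2055 bp from Slc25a23. The uncoupling protein relatives Slc25a14, Slc25a27 and Slc25a30 all passed 1 TPM, at means of 9.25 to 22.6 span TPM. Slc25a46, an outer membrane protein that acts in mitochondrial fusion and lipid transfer, stood at 102 and 143 span TPM, and is the only member of the 5 above 100 that is not an inner membrane carrier.

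Of the 8 members to which no transport role was assigned here, 3 passed 1 span TPM. Slc25a53 stood at 19.6 and 23.4 span TPM, Slc25a43 at 3.22 and 2.76, and Slc25a35 at 4.46 and 1.61. By exonic TPM Slc25a35 was below 1, at a mean of 0.704. Of its 50-base words, 7.45% recur in pseudogenes and 25.8% in any other gene, among them Rangrf, which overlaps it on the opposite strand. The other 5 were Slc25a34, Slc25a45, Slc25a47, Slc25a48 and Slc25a54, with 12 counts or fewer in each library. Some members lie close to another member. Slc25a54, at 0 counts, lies 6565 bp from Slc25a24, and Slc25a47, at 0 counts, lies 15251 bp from Slc25a29, which had 3 counts and 1 count.

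**Figure D3:**
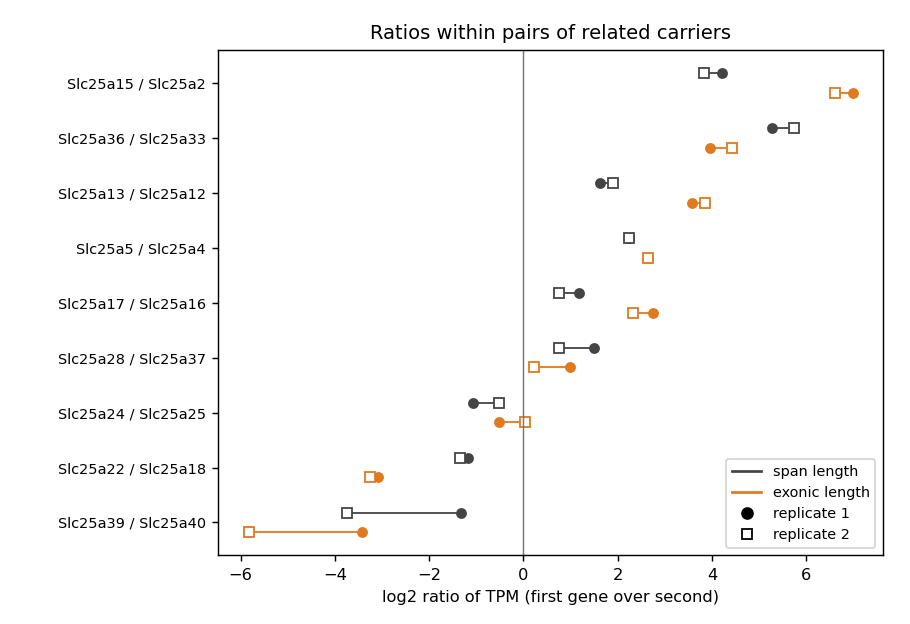
Log2 ratio of TPM within 9 pairs of related carriers in replicate 1 (circles) and replicate 2 (squares), per span length (grey) and per exonic length (orange), ordered by the exonic ratio. Slc25a5 over Slc25a4 gave the same value in both replicates to the second decimal (2.23 per span length), and Slc25a39 over Slc25a40 the widest gap (-1.34 and -3.74). Slc25a22 rests on 3 counts in replicate 2.

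Between pairs, the spread of the replicates differed widely. On the log2 scale of span TPM, Slc25a5 over Slc25a4 was 2.23 ± 0.00071 (SD, n = 2) and Slc25a13 over Slc25a12 was 1.77 ± 0.19 (SD, n = 2). Slc25a36 over Slc25a33 was 5.51 ± 0.33 and Slc25a17 over Slc25a16 was 0.96 ± 0.30. Slc25a28 over Slc25a37 was 1.13 ± 0.53, and Slc25a39 over Slc25a40 was -2.54 ± 1.70. These pairs had the same sign in both replicates, and no test was run on them. With n = 2, such an SD shows how near the values fell to each other. It does not give the precision of a ratio, and a very small SD can arise by chance.

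Of the 4 X-linked members, Slc25a5 was the highest. Among 532 X-linked genes with at least 1 span TPM it ranked 3, Slc25a53 ranked 289, Slc25a14 ranked 374 and Slc25a43 ranked 442. Splitting the ranks into equal groups of high, medium and low initial expression placed Slc25a5 in the high group, Slc25a53 in the medium group and Slc25a14 and Slc25a43 in the low group. The study kept only X-linked genes with enough allelic fragments for its silencing analysis, so its groups need not be the same. By exonic TPM, among 530 genes, Slc25a5 ranked 2 and stayed in the high group, and Slc25a53, Slc25a14 and Slc25a43 ranked 201, 263 and 341, all in the medium group. Slc25a14, a relative of the uncoupling proteins, stood at 8.81 and 9.69 span TPM, but at 21.3 and 20.9 CPM in replicates 1 and 2. Slc25a43 ends 18343 bp before Slc25a5 begins, on the same strand (36743631 to 36777307). Yet the Slc25a5 level was 202- and 293-fold that of Slc25a43 per exonic length, and 2411- and 3493-fold per span length. The counts do not separate the domesticus and castaneus alleles.

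Gene length moved single members as well. Exonic TPM was above span TPM for 28 members, and the order of members by both scales had a Spearman's rho of 0.929 (47 members, which share libraries and counts, as a description). Slc25a13, spread over 175957 bp of chromosome 6 with 3122 bp of exons, ranked 3268 of all genes by span TPM and 340 by exonic TPM. Slc25a1, with a span of 3010 bp and 1666 bp of exons, ranked 4189 and 7509. On the exonic scale the 8 members above 100 TPM were Slc25a5, Slc25a3, Slc25a36, Slc25a4, Slc25a13, Slc25a17, Slc25a40 and Slc25a46.

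**Figure D4:**
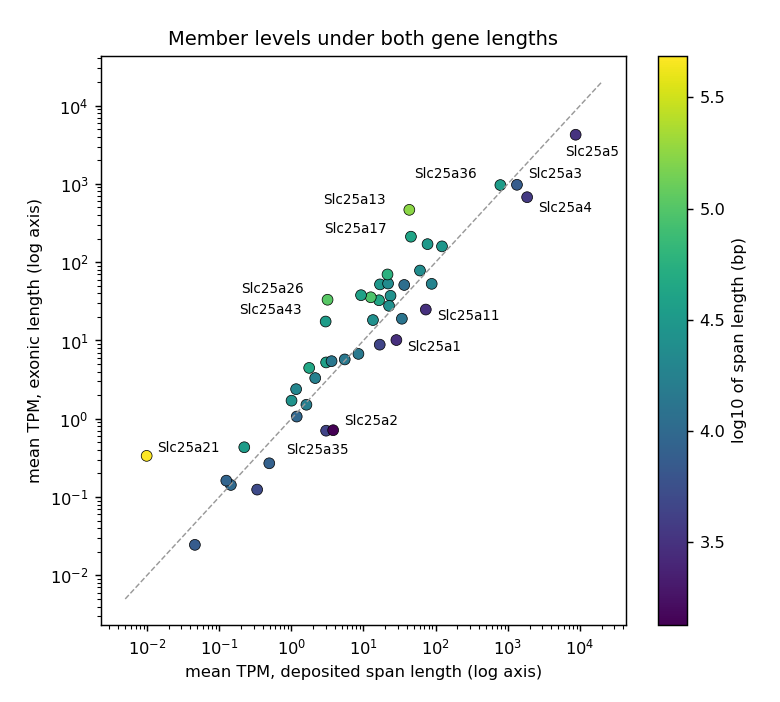
Mean exonic TPM against mean span TPM (both log axes) of the 45 members with a count, coloured by log10 of the span length in bp, with a dashed line of equality. Long genes such as Slc25a13, Slc25a26 and Slc25a21 lie above the line, and short ones such as Slc25a5, Slc25a11 and Slc25a1 below it.

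The members also shared a coding length. In 40 of 47 members the longest coding sequence held 265 to 364 residues, and 7 were over 400. These were Slc25a12 (677 residues) and Slc25a13 (676), the ATP-Mg/phosphate carriers Slc25a25 (514), Slc25a24 (475) and Slc25a23 (467), but not Slc25a41 (312), and Slc25a54 (473) and Slc25a46 (418). Slc25a12, Slc25a13, Slc25a23, Slc25a24 and Slc25a25 are known for calcium-binding domains ahead of the carrier fold. The members lay on 19 chromosomes, and no other gene of the table overlapped any of them on the same strand. Genes on the opposite strand overlapped Slc25a2, Slc25a25, Slc25a26, Slc25a35 and Slc25a53.

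The replicates were compared gene by gene with a two-sided exact binomial test against the ratio of library totals, over 14536 genes with at least 10 counts. The test compares these 2 libraries, and not conditions, and its p-values cover counting error only. TPM also depends on the lengths of all counted genes, so its direction between replicates can differ from that of CPM. Slc25a14, Slc25a17, Slc25a33 and Slc25a37 were slightly higher in replicate 2 by span TPM and slightly lower by CPM. At an adjusted p under 0.05, 25 of the 41 members tested differed, which was 61.0%, against 60.8% of all genes, a share near that of the table as a whole. Of these, 9 were higher in replicate 2 (22.0% of members tested, against 15.1% of all genes) and 16 were lower (39.0% against 45.7%).

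The members that were higher in replicate 2 were Slc25a3, Slc25a4, Slc25a5, Slc25a13, Slc25a16, Slc25a32, Slc25a36, Slc25a40 and Slc25a46, by at most 0.45 on the log2 scale of CPM. The 5 largest differences past the test were all lower values in replicate 2. Slc25a1 had 225 counts in replicate 1 and 23 in replicate 2, a log2 CPM ratio of -3.04 (exact binomial test, adjusted p = 2.2e-35). Slc25a39 had 183 and 33 counts (-2.23, exact binomial test, adjusted p = 9.1e-21). Slc25a10 had 25 and 6 counts (-1.75, exact binomial test, adjusted p = 0.0064), Slc25a35 29 and 8 (-1.57, adjusted p = 0.0054) and Slc25a23 54 and 18 (-1.33, adjusted p = 0.00075).

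Base composition moved with these differences. The GC content of the longest transcript ran from 39.7% (Slc25a40) to 60.9% (Slc25a28) over the members, and its Spearman's rho with the log2 replicate ratio was -0.79 over the 41 members tested, which share both libraries (a description). Among the 9 members tested below 45% GC, the median log2 ratio was 0.28, with 5 higher (44.8% of the 3523 genes in that bin) and 0 lower (12.3%) in replicate 2. Among the 15 members from 45 to 52% GC it was -0.03, with 4 higher (9.97% of 5449 genes) and 4 lower (47.2%). Among the 17 members at 52% GC or more it was -0.91, with 0 higher (1.25% of 5428 genes) and 12 lower (66.4%). All genes tested had medians of 0.16, -0.26 and -0.84 in the same bins. The 9 members higher in replicate 2 had a median GC content of 43.4% and the 16 lower ones of 55.1%.

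**Figure D5:**
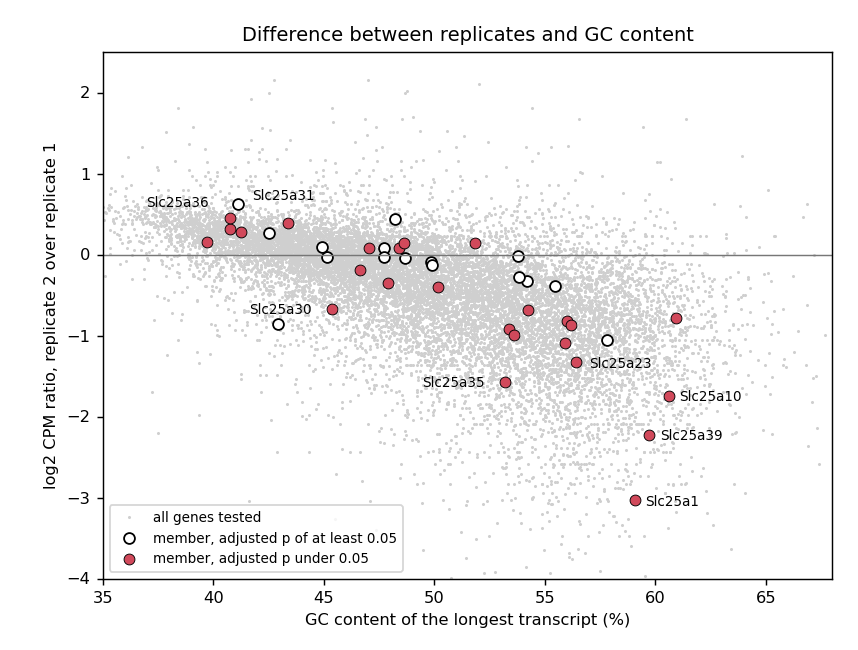
Log2 CPM ratio of replicate 2 over replicate 1 against GC content of the longest transcript for the members tested (filled, adjusted p under 0.05 by the exact binomial test; open, not) and for all genes tested (grey points). The members follow the slope of the grey cloud from a median of 0.28 below 45% GC to -0.91 at 52% GC or more, with Slc25a1 and Slc25a39 at the lower right.

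With the ratio that a smooth trend in GC gives for each gene as the expectation, 18 of 41 members differed (43.9%, against 44.6% of all genes), 14 higher (23.0% of all genes) and 4 lower (21.6%) in replicate 2. Slc25a1 remained 2.26 lower and Slc25a39 1.45 lower on the log2 scale than this expectation (exact binomial test, adjusted p = 1.4e-17 and 1.8e-08). Slc25a30 and Slc25a40 were the other two lower ones, and Slc25a40 had been higher against the library totals, so its direction depends on this choice. Slc25a10, Slc25a35 and Slc25a23 no longer passed (adjusted p = 0.22, 0.16 and 0.23 by the exact binomial test). Scaling also moved the split. Against factors of edgeR (TMM), which shifted every log2 ratio by 0.22, 28 of 41 members differed (57.7% of all genes), 16 higher (27.0%) and 12 lower (30.8%). Against size factors of DESeq2, 30 members differed (57.8% of all genes), 19 higher (31.6%) and 11 lower (26.1%). Why GC-rich genes were lower in replicate 2 was not tested.

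Genes that serve the carriers were also looked at. Of the TIM22 import route, 13 of 13 genes reached 1 span TPM, with a median of 102. Tomm22, a receptor of the outer membrane translocase, was the highest by span TPM at 1044 and 881 in replicates 1 and 2, whereas by exonic TPM Tomm70a (mean 580) and Tomm20 (265) were above it (224). Timm13, an intermembrane space chaperone, was the lowest at 3 and 2 counts and stood at 0.281 mean exonic TPM. Of 12 genes tested, 3 were higher (15.1% of all genes) and 8 lower (45.7%) in replicate 2. The outer membrane channels Vdac1, Vdac2 and Vdac3, through which metabolites reach the carriers, all passed 1 TPM. Their median was 262 span TPM and 621 exonic TPM. Of 9 inner membrane transporters outside the family, 8 passed 1 span TPM, with a median of 6.16 span TPM and 10.2 exonic TPM. By span TPM they ran from Sfxn1 (72.2, a mitochondrial serine transporter) down to Sfxn5 (0.995).

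Relatives of the family under other symbols were kept apart from the 47. Mtch2, an outer membrane insertase, stood at 351 and 322 span TPM, and Mtch1, its relative, at 4.81 and 1.34. Ucp2 stood at 7.10 and 1.50. Ucp1, the uncoupling protein of brown fat, and Ucp3, of muscle, stood below 1 TPM in both libraries, with 10 and 5 counts and 8 and 6 counts.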

How the data were processed

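Polyadenylated RNA of 2 replicates of 1 group (uninduced, 0 h) was analysed. The deposited counts were produced by the authors, who ran featureCounts 1.5.2 in reverse-stranded mode over transcript features on mm10 according to the table's header, so intronic fragments were counted, and the deposited length spans introns. The aligner and its settings for these libraries are not given in the sources used here (the submitters' processing notes name Bowtie2 2.3.2 and STAR 2.4.2a, and the methods describe STAR with unique alignments kept for the chromatin RNA libraries). Column names lack a letter b that the sample descriptions carry, and were matched by the rest. Nothing in the labels states separate cultures.

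TPM was computed from counts and length and averaged over replicates. Exonic length, GC content, coding length and 50-base words shared with pseudogenes came from GENCODE M21 (GRCm38), matched for 22153 of 22556 genes and all 47 members. Promoters came from RefSeq (GRCm38.p6). No reference proteins were used. The exact binomial test (scipy 1.17.1) with Benjamini-Hochberg adjustment at 0.05 ran over all genes with at least 10 counts in total, and log2 ratios used CPM after adding 0.5 counts. The GC trend was a polynomial of degree 3 fitted to autosomal genes that had 50 or more counts in both libraries. On counts simulated with counting noise alone the test recovered 193 of 200 changed genes and called 8 of 14285 unchanged ones, which checks the code and not the calls between these libraries. Factors came from edgeR 4.0.16 and DESeq2 1.42.0 (R 4.3.3), the counts having no second group for a model. Intervals, floors and the binomial p-values cover counting error only.

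Members, role groups, pairs and lists were chosen with earlier results of these data known, and motifs and GC bins after the values were seen. Values per replicate are given for the 12 members highest by span TPM, the pairs, the X-linked members and the 5 largest replicate differences past the test. Further members were named within their role group after their values were seen. A single member is counted in its group and not reported here by name.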

Additional observations from a re-analysis of the deposited data

How the results depend on the processing

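Of 52 alternatives for 12 results, 36 kept the value within 1 SD between replicates, or a count within 1.5 times, 15 moved it further and 1 reversed it. These limits are wide: a minimum of 5 TPM left 26 members in place of 38, and the GC trend 18 calls in place of 25. With 2 replicates, leaving out either cannot move their mean by more than 1 SD. For the pair ratios and the share of counts those alternatives could only keep the value, which is no evidence of stability. With exonic length the family median rose from 9.25 to 17.5 TPM, and over members with at least 10 counts it was 16.4 span TPM. Without Slc25a3, Slc25a4 and Slc25a5 the family took 0.315% of counts, in place of 0.575%. With exonic length the log2 ratio was 2.65 for Slc25a5 over Slc25a4, 3.71 for Slc25a13 over Slc25a12, -4.63 for Slc25a39 over Slc25a40, 4.19 for Slc25a36 over Slc25a33, -0.24 for Slc25a24 over Slc25a25, 6.80 for Slc25a15 over Slc25a2 and 2.53 for Slc25a17 over Slc25a16. With no length (CPM) it was 2.02, 2.68 and -5.35 for the first 3 of these pairs, 8.12 for Slc25a15 over Slc25a2 and 1.66 for Slc25a17 over Slc25a16. Slc25a28 over Slc25a37 turned from 1.13 to -0.84 on CPM, which leaves out the difference in length.

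Leaving out either replicate gave 34 to 38 members at 1 span TPM, a family median of 6.43 (without replicate 1) to 10.7 and a share of counts of 0.537 to 0.612%. Members differing between replicates numbered 18 to 30 over the alternatives. No paired analysis was possible because there is 1 group only. Levels below about 10 counts are limited by depth, and values of GC-rich members by the difference between the libraries.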
